A study of Mus musculus with 22 samples.

Results

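Cytosolic ribosomal protein genes were examined in 22 single mouse retinal cells. A gene was included when its symbol in the array annotation was Rpl or Rps followed by a number, with or without a letter or an X, Y or L suffix, or was one of the stalk and laminin receptor symbols Rplp0, Rplp1, Rplp2 and Rpsa. The S6 kinase genes were left out. The rule found 46 genes among the 18194 genes that the array names on their own, 24 encoding proteins of the large subunit and 22 of the small subunit. Where a gene had several probe sets, the one with the highest mean log2 signal was used.

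The series holds 13 ganglion cells, which send their axons to the brain, 6 amacrine cells, which are mostly inhibitory interneurons, and 3 light-sensing photoreceptors. The earliest ganglion cells were 3 from E12.5, followed by 1 taken at E13.5, 2 at E14.5 and 3 at E15.5, and 4 came from newborns (P0). There was 1 amacrine cell of E16.5 beside 5 of P0, and 2 photoreceptors of P0 beside 1 adult rod. All were untreated cells of papain-dissociated mouse retina, with no transgene or knockout named. The labels give the CD1 strain for some of the cells and no strain for the others. They name no animal or litter, so cells that share type and stage may share an animal, and types were assigned by the submitters only after profiling. The labelled types were set against marker genes. Since the types were assigned after profiling, this is no independent check of the labels. Ganglion cells held 6 to 9 of 10 ganglion markers detected and amacrine cells 0 to 4. Amacrine cells held 3 to 5 of 8 amacrine markers, against 1 to 2 in ganglion cells. All 3 photoreceptors held 6 to 7 of 7 photoreceptor markers, of which the other cells held 0 to 1. The E14.5 ganglion cells also held 4 to 6 of 7 progenitor and cell cycle markers and 2 of 5 pigment epithelium and lens markers, which the E12.5 and E15.5 ganglion cells held at 1 to 2 and at 0. The E13.5 cell held 2 and 1 of these. Of the P0 ganglion cells, C6 held 2 progenitor and cell cycle markers and the other 3 held 0, and all held 0 pigment epithelium and lens markers. Of 6 blood, vessel and immune markers, the E14.5 and E15.5 ganglion cells held 1 to 2, with a mean log2 signal of 8.67 to 9.50, and the E12.5, E13.5 and P0 ganglion cells 0 (7.64 to 7.78). Hbb-y, an embryonic globin, was detected in 5 ganglion cells, and Hba-a1, Pecam1 and Aif1 in 0. The part these other markers play in the ribosomal protein values was not tested.

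Ribosomal proteins form the small subunit, which reads the mRNA, and the large subunit, which joins the amino acids. A cell makes the subunits in equal number, so their mRNAs are usually abundant and vary together. The mRNAs begin with a run of pyrimidines, the terminal oligopyrimidine tract, through which mTOR signalling adjusts their translation and Larp1 their storage. Growing and dividing cells are known for high demand for ribosomes.

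Values are log2 of the array signal, scaled so that the 2% trimmed mean of every array is 500. Signals under 200 were raised to that floor (log2 7.64), and a gene is called detected where its signal reaches 1000 (log2 9.97). A difference of 1 on this scale is a doubling of signal. Each array ranks a gene relative to the other genes of that cell, so RNA content per cell is not measured. Levels of different probe sets are not compared, since probes differ in brightness. Between 1518 and 4352 genes were detected per cell. Precision is limited by the small number of arrays.

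The start sites of the genes the ganglion comparison turns on are shown first, because the tract that marks this mRNA class begins there. RefSeq (GRCm38.p6) held promoters for 40 of the 46 genes, with 48 start sites. Each line runs 5′ to 3′ from 50 bases before the annotated start to 20 bases from it on, and capitals mark the longest run of C and T that touches the 15 bases on either side of the start. The first set holds the 8 genes whose P0 ganglion cells all lay below every embryonic ganglion cell.
Rpl13a: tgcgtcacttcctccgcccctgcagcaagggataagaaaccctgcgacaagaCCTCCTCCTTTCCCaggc
Rpl22: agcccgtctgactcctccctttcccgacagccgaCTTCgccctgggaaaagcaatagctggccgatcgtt
Rpl35: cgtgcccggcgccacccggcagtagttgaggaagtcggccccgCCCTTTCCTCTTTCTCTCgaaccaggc
Rpl38: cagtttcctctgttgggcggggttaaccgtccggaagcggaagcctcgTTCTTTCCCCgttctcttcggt
Rplp2: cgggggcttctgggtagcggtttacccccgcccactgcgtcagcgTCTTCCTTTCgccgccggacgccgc
Rps24: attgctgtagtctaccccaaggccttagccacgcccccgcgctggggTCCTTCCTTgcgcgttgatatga
Rps26: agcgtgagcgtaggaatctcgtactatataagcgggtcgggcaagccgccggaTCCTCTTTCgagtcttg
Rps9: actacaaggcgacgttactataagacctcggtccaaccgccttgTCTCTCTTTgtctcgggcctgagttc
These windows lie at chr7:45128726-45128795 (minus strand), chr4:152325676-152325745 (plus strand), chr2:39005112-39005181 (minus strand), chr11:114668530-114668599 (plus strand), chr7:141447601-141447670 (plus strand), chr14:24490628-24490697 (plus strand), chr10:128626487-128626556 (minus strand) and chr7:3703991-3704060 (plus strand), in the order of the lines. The second set holds 4 genes detected in every cell whose P0 and embryonic ganglion means lay within 0.13 of each other.
Rpl7a: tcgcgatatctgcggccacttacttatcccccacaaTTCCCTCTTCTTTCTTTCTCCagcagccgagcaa
Rplp0: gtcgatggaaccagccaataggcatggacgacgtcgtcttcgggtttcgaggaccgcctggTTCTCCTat
Rpsa: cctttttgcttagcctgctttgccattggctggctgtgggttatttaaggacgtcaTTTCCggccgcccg
Rpl4: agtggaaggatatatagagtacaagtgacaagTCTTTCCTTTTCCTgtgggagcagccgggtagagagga
They lie at chr2:26910757-26910826 (plus strand), chr5:115559417-115559486 (plus strand), chr9:120127716-120127785 (plus strand) and chr9:64173337-64173406 (plus strand). The runs of the first set were 4 to 18 bases long, with 7 of the 8 at 8 bases or more. Those of the second set were 21 bases in Rpl7a, 14 in Rpl4, 7 in Rplp0 and 5 in Rpsa. The start used for Rpl22, whose run was 4 bases, lies inside its RefSeq gene span, which begins at chr4:152324436. Those of Rpl38, Rps9 and Rpl7a also lie inside their spans, which begin at chr11:114667818, chr7:3703954 and chr2:26910685. Any other starts of these genes are not shown. A run of 8 bases or more was present at 41.7% of the 48 start sites, compared with 17.6% of 32851 start sites of all genes. The letters CCGGAA, searched on both strands from 250 bases before to 50 after the start, were present at 54.2% of these sites and at 14.9% of all. Read in reverse complement this motif is TTCCGG, whose first letters can fall inside a C and T run. Run length and the change at P0 showed almost no relation. Over the 33 tested genes with a promoter, its Spearman correlation with the P0 minus embryonic difference in ganglion cells was 0.003 (the genes share 22 arrays). The median difference was -1.56 in the 16 genes with a run of 8 bases or more and -0.998 in the other 17.

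Many of these genes were among the most widely detected of the series. Detection in 22 of 22 cells was reached by 18 of the 46 genes (39.1%), compared with 60 of all genes (0.835% of the 7184 genes tested), so ribosomal proteins made up 30.0% of the genes detected everywhere. These were Rpl10a, Rpl19, Rpl27a, Rpl35, Rpl4, Rpl6, Rpl7a, Rpl8 and Rplp0 of the large subunit and Rps10, Rps14, Rps18, Rps19, Rps24, Rps4x, Rps7, Rps9 and Rpsa of the small subunit. A further 7 genes reached at least 20 cells, giving 25 in all. Among genes detected in at least 11 cells, the steadiest were Rps4x, the X-linked form of the S4 protein, with an SD of 0.78 over the 22 cells, Rpsa, which also serves as a laminin receptor precursor (0.82), Rplp0, the core of the stalk that recruits elongation factors (0.82), and Rpl4, which lines the exit tunnel (0.87). The most variable were Rps29, a small zinc-binding protein (SD 2.64), Rpl37a (2.43), Rpl38, known for selective translation of Hox mRNAs (2.25), and Rps26, one of the proteins mutated in Diamond-Blackfan anaemia (2.13).

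Pairs of these genes were more alike over the cells than pairs of other genes. The median Pearson correlation over the 22 cells was 0.40 across the 741 pairs, beside 0.02 across all pairs of tested genes. Among the 18 genes detected everywhere it was 0.54. These are descriptions, since all pairs share the same 22 arrays and their scaling.

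Detection in at least 3 cells, the condition for testing, was met by 39 of the 46 genes. The condition can be met through a group where a gene is high, so nothing is drawn from the count of those that met it. The tested genes with the fewest cells were Rpl12, of the stalk base, and Rpl14, with 4 cells each, and Rps25 and Rps4l, an autosomal copy of Rps4x, with 6 each. The 7 untested genes were Rpl37, Rpl39l, Rps16 and Rps6, detected in 0 cells, Rpl3l in 1, and Rpl39 and Rps27 in 2 each. Rpl3l and Rpl39l are copies of Rpl3 and Rpl39 known from muscle and testis. Rpl3l reached 12.81 in the P0 photoreceptor H1 and lay under the detection level in the other 21 cells. Rps6, the substrate of the S6 kinases, lay at 8.31 or lower throughout. For 5 of these 7 symbols, further probe sets list the symbol beside other genes. Those of Rps6 and Rps16 reached detection in up to 22 cells, and those of Rpl39, Rpl37 and Rps27 in up to 18, 17 and 17. A gene at the floor here therefore has a probe set at the floor, which does not show that its mRNA was absent. In all, 110 probe sets list a ribosomal symbol of this rule beside another gene, and 60 of them were detected in at least 20 cells.

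The clearest pattern over the ganglion cells was a lower level at P0. The median over the 46 genes was 13.51, 13.93 and 13.99 in the E12.5 cells, 12.99 in the E13.5 cell, 14.04 and 14.34 in the E14.5 cells, and 13.98, 14.36 and 15.45 in the E15.5 cells. In the P0 cells it was 9.75 in A6, 11.65 in A3, 12.30 in C6 and 13.28 in F1. P0 cell F1 lay above the E13.5 cell, so the stages overlapped by that pair of cells alone. The embryonic cells detected 33 to 39 of the 46 genes, and the P0 cells detected 21, 28, 31 and 36. The 46 probe sets carried 1.37% to 3.24% of the signal of each embryonic array and 0.58% to 1.45% of each P0 array.

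**Figure D1:**
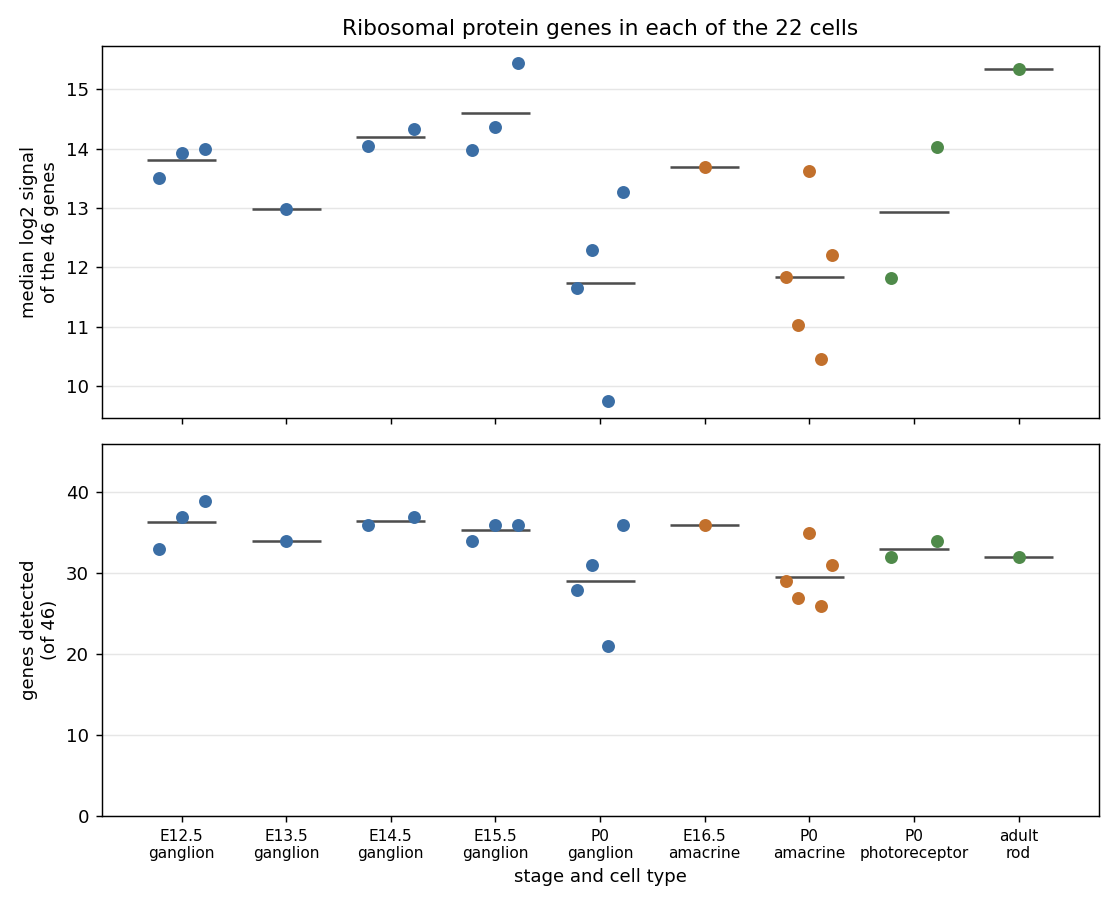
Median log2 signal of the 46 ribosomal protein genes (top) and number of them detected (bottom) in each cell, by stage and cell type. Each point is 1 cell and each bar the mean of its group. Of the P0 ganglion cells, F1 at 13.28 is the only one above the E13.5 cell at 12.99, and A6 is lowest of all at 9.75.

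The number of all genes detected also differed between cells. It was 1518 to 4137 in embryonic ganglion cells and 2293 to 4352 at P0. Within P0, F1 had the most genes (4352) and the most ribosomal protein genes, and A6 the fewest of both (2293 and 21). In the embryonic cells the order differed, as E15.5 cell C7 had the fewest genes (1518) and the highest ribosomal median. Over the 22 cells the Spearman correlation of genes detected was 0.07 with the ribosomal median and 0.49 with the number of ribosomal genes detected. The part of array quality in the P0 values was not tested.

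P0 was set against the mean of the 4 embryonic stages with limma, after averaging cells into 9 type-and-stage samples. This comparison was added after the stage slope below had been seen. The median difference over the 46 genes was -1.20, with 38 below 0 and 4 above, while the median over all 7184 tested genes was 0.13. No ribosomal protein gene passed an adjusted p of 0.05 (0 of 39 tested), beside 2 of all 7184 genes (0.0278%), both higher at P0. At an unadjusted p under 0.05 the counts were 0 of 39 and 215 of 7184 (2.99%). Adjusted p was 1.0 for each of the 39 genes by limma. The P0 ganglion cells form 1 sample in this fit, which leaves wide errors. In simulated data this fit recovered 0% of shifts of 2 and 17.3% of shifts of 4. The count of 0 therefore cannot show that such differences were absent.

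Counted over cells, 8 of the 46 genes had all 4 P0 ganglion cells below all 9 embryonic ganglion cells, beside 19 of the 7184 tested genes (0.264%). The reverse held for 0 of the 46, beside 31 genes (0.432%). The 8 were Rpl13a, Rpl22, Rpl35, Rpl38, Rplp2, Rps24, Rps26 and Rps9. Cells of a stage may share an animal, so this count carries no test. It rose to 13 without P0 cell F1 and to 12 without the E13.5 cell, and fell to 3 when arrays were quantile normalized. It was 5 when all probe sets of a gene were averaged, or when probe sets with the suffix _x_at, which marks possible cross-hybridisation, were left out. The share of all tested genes was not counted under these settings, so these counts cannot be set against the 0.264%.

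Rpl38 ran from 12.42 to 13.96 in the embryonic ganglion cells, with a median of 13.07, and measured 9.05, 8.81, 7.64 and 11.71 in P0 cells A3, C6, A6 and F1. It was detected in 1 of the 4 P0 cells, and its difference was -3.67 ± 2.01 (standard error of the limma contrast). Rps26 ran from 11.94 to 14.81 (median 13.81) and measured 9.23, 9.03, 9.37 and 11.87 at P0. Its highest P0 cell, F1, came within 0.06 of its lowest embryonic cell, at E13.5, and its difference was -3.44 ± 1.86. Rpl22, an RNA-binding protein needed for T cell development, ran from 12.19 to 15.31 (median 13.16) and measured 7.64, 10.86, 9.39 and 11.52 at P0. Its difference was -3.44 ± 1.89, and 1 P0 cell lay at the floor. Over the 3 probe sets of Rpl22 the difference ran from -3.485 to 0.289, with 2 of the 3 below 0.

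Rplp2, a partner of Rplp0 in the stalk, ran from 13.25 to 15.59 in the embryonic cells (median 14.41) and measured 10.28, 11.24, 9.73 and 13.00 at P0. Rpl13a, also known as a translational silencer outside the ribosome, ran from 14.17 to 16.68 (median 14.90) and measured 12.52, 12.68, 9.02 and 14.02. Their differences were -3.17 ± 1.91 and -2.93 ± 1.73. Rpl35 ran from 13.81 to 15.77 (median 14.99) and measured 12.37, 12.43, 11.08 and 13.61 at P0.

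The remaining 2 of the 8, Rps24 and Rps9, were detected in every cell and differed less. Rps24 ran from 15.00 to 16.43 in the embryonic cells (median 15.24) and from 12.68 to 14.21 at P0. Rps9 ran from 14.35 to 16.33 (median 14.66) and measured 14.34, 14.09, 11.998 and 14.17. For Rps9 the gap between the groups was 0.01, far within the spread of either.

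Other genes had differences as large with cells that overlapped. Rps29 had the largest, at -3.92 ± 1.96. It ran from 11.50 to 15.11 in the embryonic ganglion cells (median 13.53) and measured 8.38, 7.64, 9.66 and 11.54 at P0, so F1 passed the E13.5 cell by 0.04. Rps15, near the decoding centre, ran from 12.29 to 15.05 (median 14.65) and measured 10.72, 12.49, 8.26 and 12.99 at P0, a difference of -3.29 ± 1.72. Its lowest embryonic cell was E15.5 cell C7, which had the highest ribosomal median of the ganglion cells.

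Against these, 4 widely detected genes showed almost no difference. Rpl4 ran from 14.74 to 16.43 in embryonic ganglion cells (median 15.45) and measured 15.69, 16.14, 16.18 and 14.60 at P0, a difference of 0.13 ± 1.36. Rpsa ran from 14.35 to 16.09 (median 14.68) and measured 14.72, 15.54, 15.23 and 14.29 at P0 (0.12 ± 1.55). Rplp0 measured 14.98, 16.04, 13.99 and 14.63 at P0 and Rpl7a 14.57, 15.36, 14.00 and 14.00, with differences of -0.10 ± 1.43 and -0.09 ± 1.57. P0 cell A6, which had the lowest median over the 46 genes, was the highest P0 cell for Rpl4. These errors still allow differences in either direction. Rpl12 had the highest difference (0.42 ± 0.92), which rests on the few cells that detected it.

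**Figure D2:**
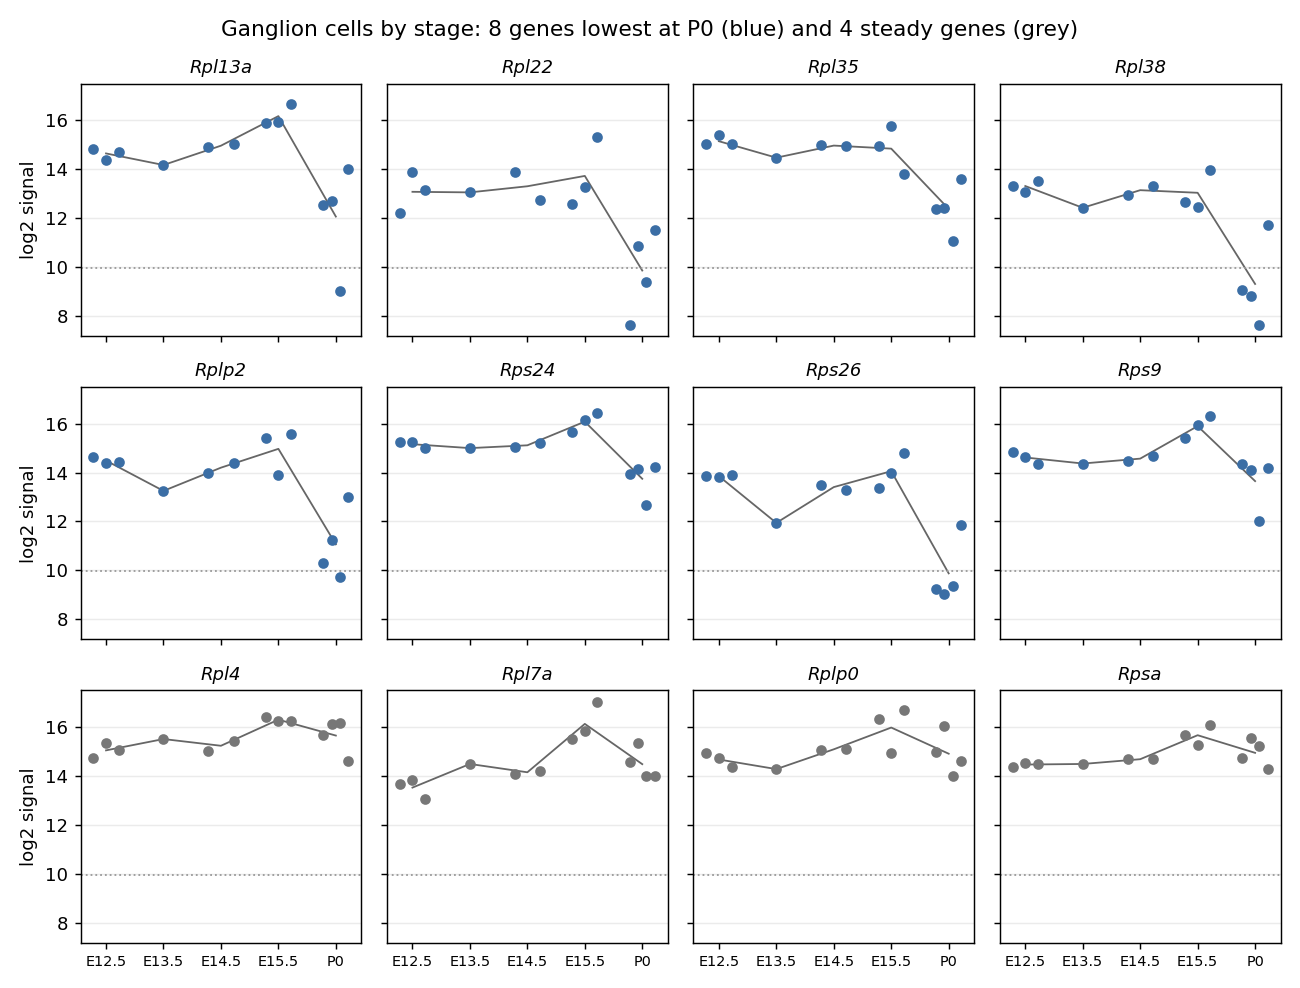
Log2 signal of 12 ribosomal protein genes in each ganglion cell by stage. Points are cells, lines join stage means, and the dotted line is the detection level of 9.97. The 8 genes in blue have all 4 P0 cells below the embryonic cells, and the P0 cells of the 4 genes in grey overlap the embryonic ones. The lowest P0 cell still lies below every embryonic cell for Rpl4 (F1, 14.60), Rpsa (F1, 14.29) and Rplp0 (A6, 13.99).

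The 18 genes detected in all 22 cells cannot, by that condition, fall under the detection level at P0. Their median level was 14.33 to 16.42 in embryonic ganglion cells and 12.77, 13.78, 14.00 and 14.36 at P0, so the groups overlapped. Of the other 21 tested genes, embryonic cells detected 15 to 21 and P0 cells 3, 10, 13 and 18. These genes could meet the condition for testing through the embryonic cells alone, so nothing is read from setting the 2 sets against each other.

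**Figure D3:**
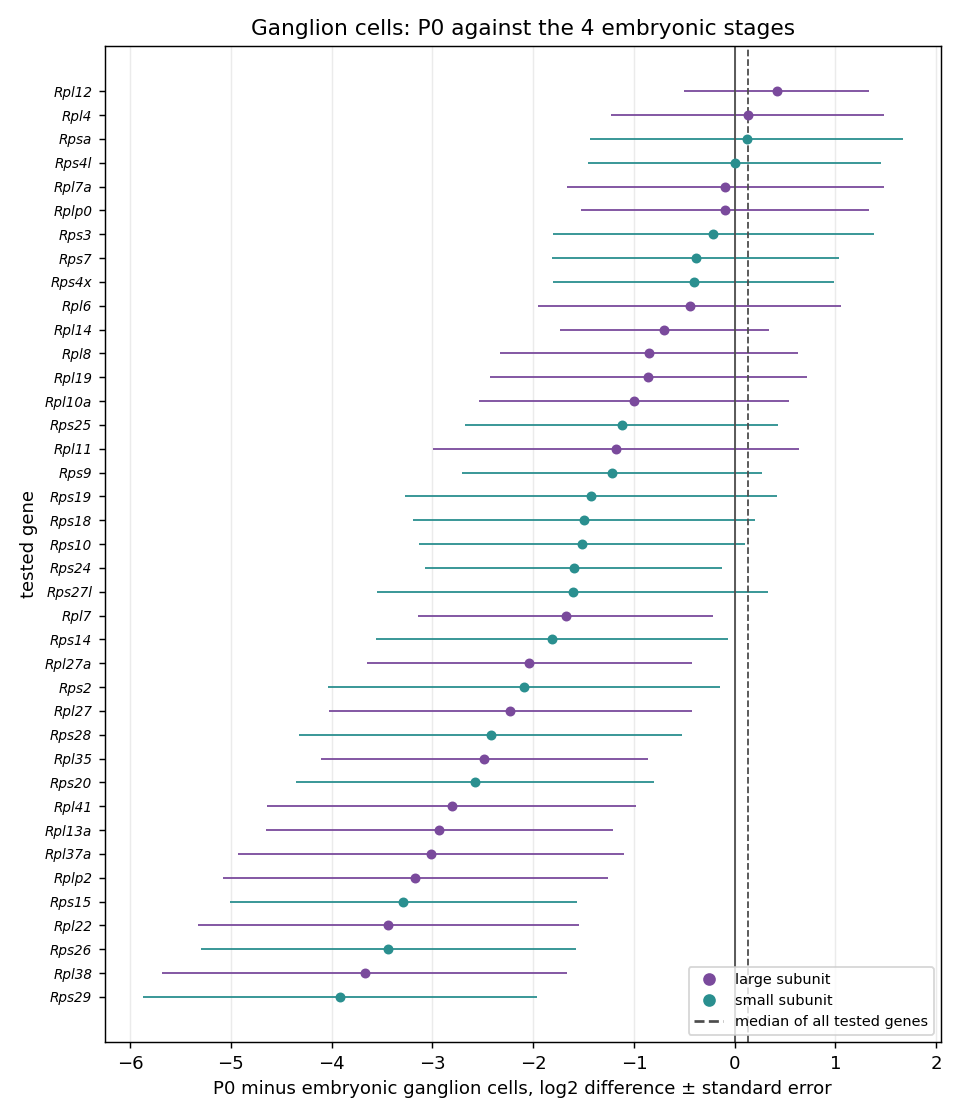
P0 minus embryonic difference in ganglion cells for the 39 tested genes, as points with the standard error of the limma contrast, coloured by subunit. The solid line marks 0 and the dashed line the median of all tested genes (0.13), and 35 of the 39 points lie below 0.

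Among probe sets of these genes detected in at least 3 cells, a lower level at P0 was present in most, not only in the chosen ones. Of the 100 probe sets of the 46 genes, 79 were detected in at least 3 cells, and 72 of these had a lower mean at P0 than in the embryonic stages. A probe set could meet that condition through the embryonic cells alone. The share below 0 over all probe sets of the array was not counted, so the 72 of 79 is a description only. Exceptions included Rpl41, which encodes the shortest protein of the set, with 2 of its 4 probe sets below 0, and Rpl22, with 2 of 3. Among probe sets that list a ribosomal symbol beside other genes, 94 were detected in at least 3 cells. Their median difference was -1.88, 87 lay below 0, and 29 of the 94 (30.9%) had all P0 ganglion cells below all embryonic ones. These probe sets share cells, and often sequence, with the 46 genes. They met the same condition, and no such share was counted over all probe sets, so nothing is read from the 30.9%.

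The slope over the rank of the 5 ganglion stages, the planned test, did not capture this course. The median slope over the 46 genes was -0.04 per stage step, with 29 below 0 and 14 above, and that of all tested genes was 0.00. By limma 0 of the 39 tested genes passed, as did 0 of all 7184 (0.0%). Unadjusted p fell under 0.05 for 0 of the 39 and for 144 of 7184 (2.0%). Rps15, Rpl41, Rpl38 and Rps2 had the steepest falls, at -0.83 ± 0.48, -0.74 ± 0.55, -0.74 ± 0.56 and -0.70 ± 0.57 per step. Rpl7a, Rps3, Rplp0 and Rpsa had the steepest rises, at 0.36 ± 0.45, 0.22 ± 0.44, 0.22 ± 0.42 and 0.21 ± 0.45. Adjusted p was 1.0 for all 8 by limma. The stage means of Rplp0 were 14.67, 14.28, 15.09, 15.98 and 14.91 from E12.5 to P0, so its highest stage was E15.5.

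Amacrine cells showed a similar order of stages with fewer cells. The single E16.5 cell, J6, had a median of 13.70 over the 46 genes and detected 36. The P0 amacrine cells had medians of 10.46 (G3), 11.02 (D1), 11.85 (A4), 12.21 (B1) and 13.63 (F6), and detected 26, 27, 29, 31 and 35. All 5 lay below J6, F6 by 0.07. For 0 of the 46 genes did all P0 amacrine cells lie below all 10 embryonic cells (0.111% of tested genes), and for 0 did all P0 ganglion and amacrine cells (0.0139%). These counts are near the shares of all tested genes. The array of B1 had been deposited at a lower scale and was multiplied by 27.6. The median P0 minus E16.5 difference over the 46 genes was -1.09, beside -0.29 over all tested genes, with 1 sample a side and no test. The largest differences among tested genes were in Rpl37a (-2.998), Rpl11 (-2.80), Rpl22 (-2.71) and Rps26 (-2.68). Rpl11 is the ribosomal protein best known for binding Mdm2. Cell F6 also detected the most genes of any P0 amacrine cell (4132), as F1 did among P0 ganglion cells.

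At P0, ganglion and amacrine cells overlapped in each of the 46 genes, as they did in most tested genes. For 0 of the 46 did the P0 amacrine cells all lie below the P0 ganglion cells, beside 1.66% of tested genes, and for 0 the reverse, beside 0.334%. Both counts are near those shares, so nothing particular to the 46 genes is read from them. The median P0 ganglion minus amacrine difference was -0.10, and that of all tested genes 0.23. Rps3, which helps shape the mRNA entry site, had the largest. It measured 14.36, 14.40, 14.74 and 14.07 in P0 ganglion cells and 12.67, 7.64, 14.52, 14.05 and 11.95 in P0 amacrine cells A4, D1, F6, G3 and B1. The difference of 2.23 rests largely on D1, which lay at the floor.

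Across all stages, ganglion and amacrine cells were compared in the limma fit. The ganglion samples are more often embryonic than the amacrine ones, so type and stage cannot be told apart. The median ganglion minus amacrine difference over the 46 genes was 0.37, with 36 above 0 and 8 below, and -0.06 over all tested genes. At P0 alone it was -0.10 over the 46 genes, with 17 above 0 and 26 below. Over all stages it was 1.14 without the E16.5 cell J6, which alone makes up 1 of the 2 amacrine samples. By limma 0 of the 39 tested genes passed, beside 1 of 7184 (0.0139%), with unadjusted p under 0.05 for 0 and for 251 (3.49%). Rps29 (1.86 ± 1.47), Rps3 (1.65 ± 1.17), Rps25 (1.55 ± 1.19) and Rpl38 (1.53 ± 1.49) were the highest in ganglion cells. Rpl7 (-0.51 ± 1.06), Rps27l, a paralog of Rps27 induced by p53 (-0.38 ± 1.50), Rps14 (-0.32 ± 1.33) and Rps9 (-0.22 ± 1.12) were the lowest. Each of these 8 had an adjusted p of 0.999 by limma.

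Photoreceptors were set against the other types, with ganglion and amacrine means weighted equally. The median difference over the 46 genes was 1.03, with 29 above 0 and 15 below, while all tested genes had a median of -0.57. None of the 39 tested genes passed by limma (0 genes), beside 120 of 7184 (1.67%), of which 90 were higher (1.25%) and 30 lower (0.418%). Unadjusted p fell under 0.05 for 2 of the 39, Rps3 and Rps10, and for 798 of 7184 (11.1%). Rps3 (2.95 ± 1.15, adjusted p = 0.219 by limma), Rps10 (2.52 ± 1.17), Rps20 (2.35 ± 1.27) and Rps29 (2.32 ± 1.44) were highest. Rplp2 (-2.59 ± 1.41), Rps2 (-2.55 ± 1.48), Rpl11 (-2.11 ± 1.33) and Rpl13a (-1.94 ± 1.28) were lowest. The median over the 46 genes was -0.09 without the adult rod and -0.29 after quantile normalization, so its sign changed with the samples and the scaling. Without the rod, P0 photoreceptors are set against ganglion and amacrine samples that are mostly embryonic. At P0 alone the median was 0.70, with 32 above 0 and 13 below. The parts of stage and type in these values cannot be told apart.

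The P0 photoreceptors differed from each other. The median over the 46 genes was 11.82 in H1 and 14.03 in E1, which detected 32 and 34 of them. H1 held 3 of 6 glial markers and 4 of 7 progenitor and cell cycle markers (mean log2 signal 10.39 and 11.02). E1 held 0 of either (7.64 and 7.66), and the part of these in the values was not tested. The median P0 photoreceptor minus ganglion and amacrine difference was 0.70, beside -0.49 over all tested genes. For 0 of the 39 tested genes were both photoreceptors above all 9 P0 ganglion and amacrine cells (2.52% of all tested genes) or below them (1.18%). Counts of 0 are near those shares. Among the untested genes Rpl39 was the only one separated, at 8.68 and 8.40 against at most 8.18, all under the detection level. Rps29 measured 8.55 in H1 and 14.11 in E1, and Rpl37a 10.32 and 13.99.

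The adult rod had the most uneven profile. Its median over the 46 genes was 15.35 and it detected 32 of them. For 21 of the 39 tested genes the rod lay above all other 21 cells, beside 528 of 7184 tested genes (7.35%). Over all 46 genes the count was 23, with Rpl39 and Rps6 added. For 3 genes, Rpl11, Rplp2 and Rpsa, it lay below all of them, beside 70 genes (0.974%). Rpl7 measured 19.19, Rps3 18.92, Rps7 18.81 and Rps10 18.48 in the rod, whereas the highest other cells reached 17.27, 16.53, 16.71 and 15.81. Rpsa measured 11.97 in the rod and 14.24 to 16.09 in every other cell. Rplp2 measured 7.71, near the floor, and Rplp0, its stalk partner, 16.34. Rpl11 measured 9.35, under the detection level.

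The median adult minus P0 photoreceptor difference over the 46 genes was 2.34, with 32 above 0 and 11 below, and that of all tested genes was 0.00. Differences ran from -5.61 in Rplp2 to 6.49 in Rpl38 in the large subunit and from -3.19 in Rps14 to 5.36 in Rps20 in the small. Rpl11 (-4.52) and Rpl13a (-4.46) were also lower in the rod. These set 1 adult cell against 2 P0 cells and have no test. The rod had 27.7% of its signal in 100 probe sets, the highest share of the 22 cells, so its values are given apart from the ganglion results.

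**Figure D4:**
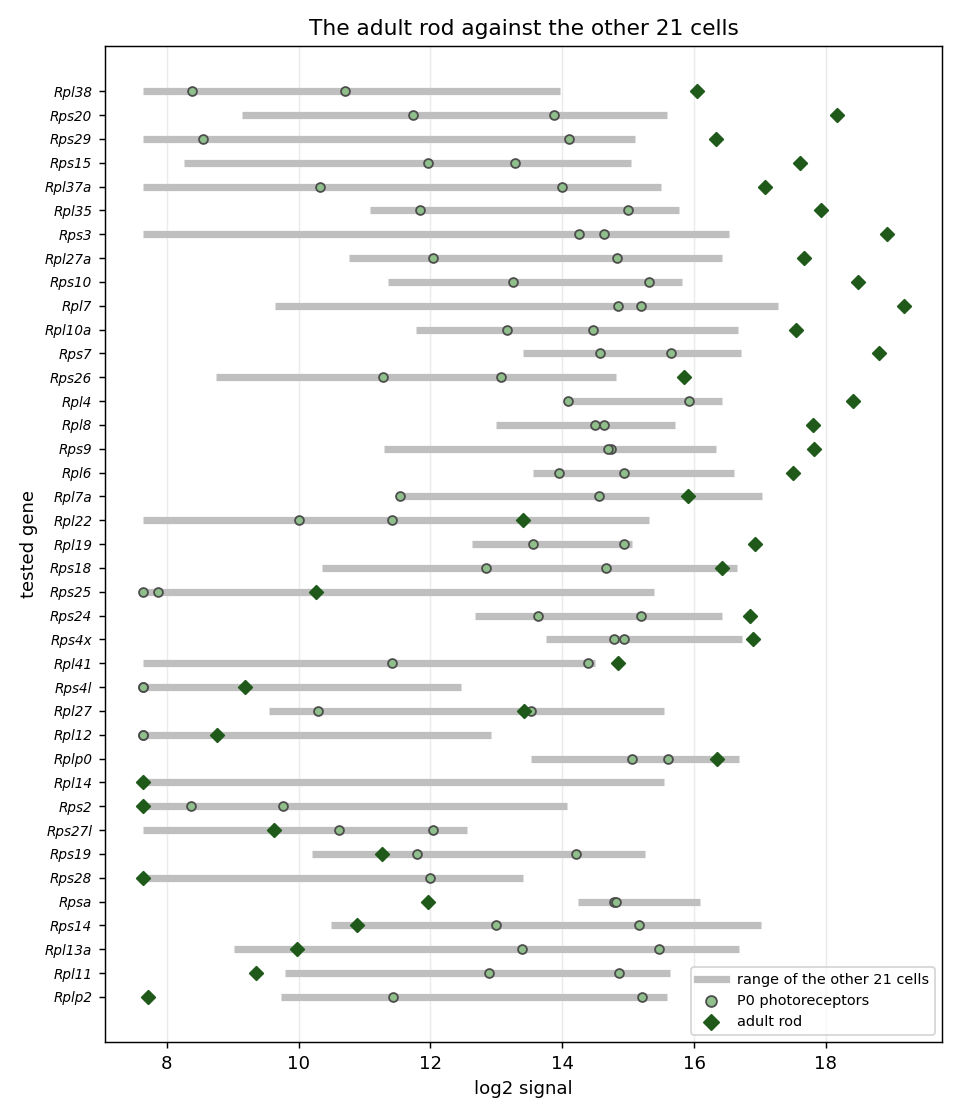
Log2 signal of the 39 tested genes in the adult rod (diamonds), the P0 photoreceptors (circles) and the range of the 21 other cells (grey bars), ordered by the adult minus P0 photoreceptor difference. The rod lies above the bar for 21 genes and below it for Rpl11, Rplp2 and Rpsa.

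Large and small subunit genes deviated from their own means to a similar extent in most cells. Each gene was centred on its own mean over the 22 cells, and the medians over 20 large and 19 small subunit genes were compared within a cell. Centring puts both sets near 0 over the 22 cells, so no level of a subunit against the other is measured. The large minus small difference ran from -0.65 to 0.50 in embryonic ganglion cells and from -0.09 to 0.04 at P0. The ends of that range are E14.5 cell E1 and E15.5 cell C7. P0 amacrine cell D1 stood apart at 0.91, with a small subunit median of -1.71 and a large subunit median of -0.79, and the adult rod had 0.55. The P0 minus embryonic median was -1.43 over the large and -1.52 over the small subunit genes. The ganglion minus amacrine medians were 0.51 and 0.46, and the photoreceptor medians 1.13 and 1.11.

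**Figure D5:**
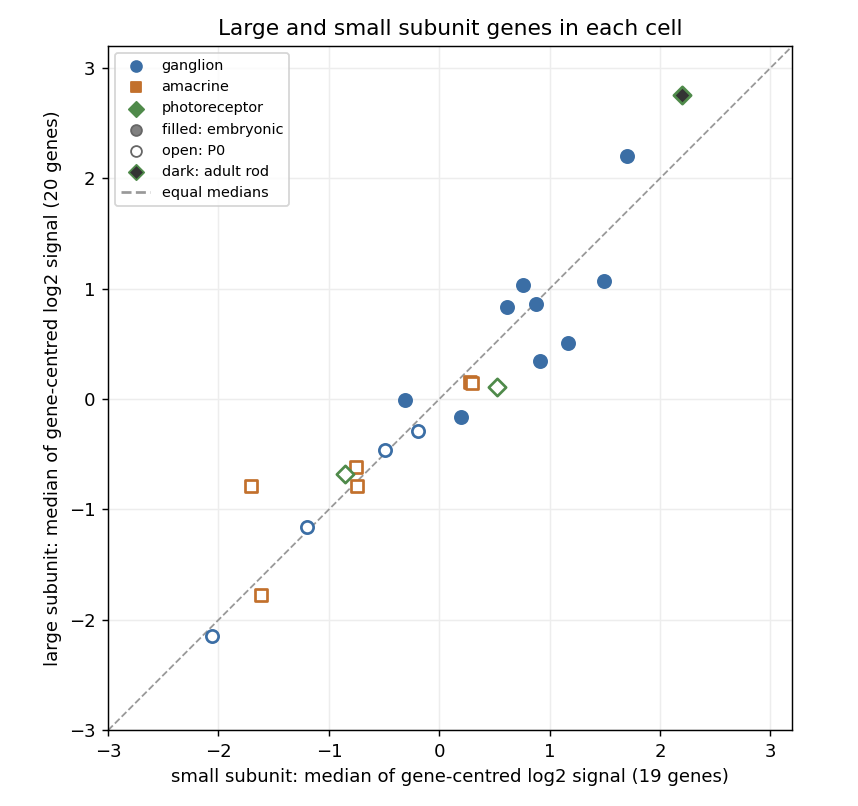
Median gene-centred log2 signal of the 20 large subunit genes against that of the 19 small subunit genes, 1 point per cell. Colour and shape give the cell type and fill the stage, and the dashed line marks equal medians. P0 amacrine cell D1 lies farthest above the line, at a difference of 0.91.

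Short and long genes were compared by their RefSeq genomic span, since transcript and protein lengths were not used here. Spans of the 39 tested genes had a median of 3668 bases. Within embryonic ganglion cells the Spearman correlation of span with gene-centred level ran from -0.31 to 0.08, and within P0 ganglion cells from 0.04 to 0.32. The P0 minus embryonic median was -1.86 over the 20 shorter and -1.42 over the 19 longer genes, and over the 39 genes span and difference had a Spearman correlation of 0.20. These genes share cells and arrays, and span includes introns, so the relation is a weak description only. Arrays of this kind read the 3′ end of cDNA primed from the poly(A) tail.

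Ribosomal proteins whose symbols fall outside the naming rule were read alongside. Fau, which encodes the S30 protein fused to a ubiquitin-like domain, was detected in 20 cells and had a P0 minus embryonic ganglion difference of -2.57 ± 1.82. Rps3a1 was detected in 22 cells (-0.47 ± 1.49), Rpl22l1, the paralog of Rpl22, in 15 (0.05 ± 2.04) and Rpl7l1 in 6 (-0.71 ± 1.55). In each of these 4, limma gave an adjusted p of 1.0. For Rpl22l1 the difference lay near 0 where that of Rpl22 was -3.44 on its chosen probe set and -3.485 to 0.289 over its 3 probe sets.

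Other genes of the translation machinery had medians nearer those of all tested genes. In the P0 minus embryonic comparison the median was -0.12 over 15 genes related to elongation or to tract-bearing mRNAs. It was -0.18 over 30 initiation factors and -0.19 over 43 ribosome biogenesis genes. For 15 regulators of ribosomal protein synthesis it was 0.20, and for 76 mitochondrial ribosomal proteins -0.05. By limma 0 genes of any of the 5 lists passed in any of the 4 comparisons. The count with all P0 ganglion cells below all embryonic ones was 0 in each list, near the share of 0.264% among all tested genes. Elongation factors Eef1a1 and Eef2 and the nascent chain factor Btf3 were detected in 22 cells. In that list Nap1l1, a nucleosome assembly protein (-1.07), and Eef2 (-1.05) lay lowest, and Eef1e1 (1.85) and Pabpc1, the poly(A) binding protein (1.33), highest at P0.

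Among initiation factors Eif1ax (3.71) and Eif3i (2.77) lay highest at P0 and Eif5 (-1.96) and Eif4h (-0.84) lowest. Among biogenesis genes Pes1 (-2.40) and nucleolin, Ncl (-2.08), were lowest and Gnl3 (2.32) and Las1l (2.18) highest. Among regulators Mtor, the kinase, was lowest (-1.37), followed by Mycn (-0.87), and Tial1 (2.52) and Rheb (1.81), the activator of mTOR, were highest. Among mitochondrial ribosomal proteins Mrpl40 (-2.33) and Mrpl36 (-2.21) were lowest and Mrpl55 (3.28) and Mrpl58 (2.94) highest. Adjusted p was 1.0 for each of these by limma.

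In photoreceptors the 30 initiation factors had a median difference of -1.41 from the other types, and 20 lay below 0. Of all tested genes 65.8% lay below 0 in this comparison, with a median of -0.57, so the count is near that share. Eif4h (-4.28, adjusted p = 0.095 by limma) and Eif3f (-3.82) were lowest, and Eif2s3x (3.32) and Eif4b (2.45) highest. Those values include the adult rod, as above.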

How the data were processed

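Single cells were picked from dissociated retina, and their cDNA was primed with oligo dT, tailed, amplified by PCR and hybridised to Affymetrix mouse arrays, per the labels' protocols. The authors deposited linear signal intensity from MAS5, per the submitters' processing notes, with no detection calls used here. Scanner settings and hybridisation batches: not given in the sources used here. Every array had a 2% trimmed mean of 500 except P0 amacrine cell B1 (18.1), which was multiplied by 27.6.

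Of 45101 probe sets, 34958 list 1 gene symbol, 932 several and the rest none, by the platform annotation, and none was named from several symbols. Signals under 200 were set to 200 before log2 was taken. Each of 18194 genes was read from its probe set of highest mean log2 signal, and 7184 genes at 1000 or more in at least 3 cells were tested. Cells are not replicates, so the cells of each type and stage were averaged to 1 sample, giving 5 ganglion, 2 amacrine and 2 photoreceptor samples (9 in all), which may still share animals. Limma 3.58.1 in R 4.3.3 fitted 1 mean per type and a slope over ganglion stage rank (eBayes with trend, tested on simulated data), and p was adjusted by the Benjamini-Hochberg method over all 7184 genes. A step between P0 and the embryonic ganglion stages in place of the slope was chosen after seeing the data. In 5 simulations, each gene's values were shuffled over the cells, and 200 of the 7184 genes were given a shift. For the slope, the shift was the change from E14.5 to P0, with the opposite change at E12.5. For the other comparisons it was a difference between groups, so the slope's shares cannot be set against theirs. Recovered at a shift of 2 were 16.2% for ganglion minus amacrine, 12% for photoreceptors, 6.5% for the slope and 0% for the step. At a shift of 4 the shares were 49.8%, 46.7%, 77.5% and 17.3%, in that order. The p-values measure only the spread between these samples, which may be technical.

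The genes, lists and tests were chosen with earlier results of these data known. Genes were named by rule: the 4 largest differences each way per comparison, the 4 most and 4 least variable, those in all or fewest cells, untested genes, stalk proteins and paralogs, and, for the P0 comparison, 2 genes each way of every other list (for photoreceptors, of the initiation factors only). Genes with no P0 overlap were named after their values were seen. Gene span replaced the planned transcript or protein length. Alternatives were another floor, quantile normalization, other probe set rules, no filter on dim genes, gene-wise variances, no slope, medians over cells, the 22 cells with type and stage as a random block, and leaving out each cell.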

Additional observations from a re-analysis of the deposited data

Results flagged for a closer look

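In 13 of 98 sets of P0 values (13.3%), 1 cell stood far from the other cells of its group by Dixon's criterion. Chance meets it in about 1 in 20 sets of measured values. That rate does not apply to 7 of the 13, where all other cells lay at the floor and any value above it meets the criterion. Among the 4 P0 ganglion cells, A6 was lowest in Rpl7 (9.65, others 14.49 to 15.39) and Rps9 (12, others 14.09 to 14.34). Cell F1 was highest in Rps26 (11.87, others 9.03 to 9.37), Rpl14 (10.59, others at the floor of 7.64) and Rps6 (8.16, others at the floor), the last under the detection level. Cell C6 was highest in Rps25 (10.24, others up to 8.02) and Rpl12 (11.36, others at the floor).

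Among the 5 P0 amacrine cells, D1 had the highest large minus small subunit difference (0.91, others -0.15 to 0.14), and B1 was highest in Rpl12 (12.92, others at the floor). The other 4 values lay under the detection level: Rpl37 in F6 (8.1), Rpl39 in G3 (7.72), Rpl3l in B1 (8.17) and Rps27 in F6 (7.77). Causes were not tested.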

How the results depend on the processing

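In each of the 4 limma comparisons, 0 ribosomal protein genes were called under every alternative run. Simulated shifts of 2 were mostly missed by the main fits, so these counts of 0 cannot show that such differences were absent. The count of genes whose P0 ganglion cells all lay below the embryonic ones was 8. It was 3 after quantile normalization, 5 with the mean over probe sets, 5 with no _x_at probe sets, and 8 to 13 when 1 cell was left out. Leaving out a cell can only keep or raise this count, so the low end of 8 was fixed in advance. The share of all tested genes under these settings was not counted. The photoreceptor median of 1.03 became -0.292 after quantile normalization and ran from -0.094 to 1.06 with 1 cell left out. The ganglion minus amacrine median was 1.14 without the E16.5 cell, which leaves only P0 amacrine cells, and stayed above 0 otherwise.

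Small differences changed sign. In ganglion minus amacrine, Rps27l was 0.301, Rps14 0.273 and Rps9 0.355 with the 22 cells fitted with type and stage as a random block. Rps27l was 0.429 with the median over cells. Without the adult rod and the E16.5 cell the 3 genes were 0.888, 0.381 and 0.642, and with 1 cell left out they ran from -0.664 to 0.888, -0.565 to 0.381 and -0.56 to 0.642. In photoreceptors, Rplp2 was 0.56, Rpl11 0.853 and Rpl13a 0.582 without both cells. With 1 cell left out they ran from -3.533 to 0.217, -2.604 to 0.152 and -2.461 to 0.29, Rps20 from -0.327 to 2.888 and Rps29 from -0.178 to 3.712, the sign changing without the rod. In P0 minus embryonic ganglion cells, Rpl12 was -0.647 with the median over cells and Rpl4 -0.015 after quantile normalization. With 1 cell left out Rpl12 ran from -0.512 to 0.728, Rpl4 from -0.048 to 0.478 and Rpsa from -0.08 to 0.337. Beyond these alternatives' own construction, the cause was not tested. No paired analysis was possible because the labels give the cells codes, not replicate numbers shared between groups. Signal near the floor limits the genes detected in few cells.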
